A study of Mus musculus with 6 samples.

Results

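The secretory granule of the pancreatic acinar cell was examined here through 6 genes that encode granule proteins other than the digestive enzymes, namely Sycn, Zg16, Gp2, Klk1, Cuzd1 and Dmbt1. They were chosen by symbol, not by their values, although earlier results of these data were known. All 6 were found among the 10245 genes of the table. RNA-seq compared whole pancreas RNA from 3 mice with the genotype Ptf1a CreERT/+, the control group, with that from 3 mice in which the other Ptf1a allele was floxed (Ptf1a CreERT/lox, called Ptf1a cKO), to ask what adult acinar cells express once the transcription factor Ptf1a is deleted. The CreERT cassette sits in the Ptf1a locus and replaces that copy of the gene, so that Cre was made where Ptf1a is expressed, and the control mice carried a single working copy. According to the study, all mice with inducible Cre also carried the R26R EYFP reporter. Both groups received tamoxifen (TM) at 0.25 mg/g on 3 days and were killed at day 14. The control mice were 4 months old and the Ptf1a cKO mice 5 months, so age and genotype cannot be told apart. Each group held both sexes, the males being control replicate 1 and Ptf1a cKO replicate 2.

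Acinar cells store digestive enzymes as inactive precursors in zymogen granules, which fuse with the apical membrane when the cell is stimulated by a meal. The granule also carries proteins that line its membrane, bind its glycans or help to pack its content. Ptf1a, with its partner RBPJL, drives many acinar genes through paired sites, an E-box and a site bound by RBPJ or RBPJL. Among the 6 proteins, syncollin (Sycn) is a small protein on the luminal side of the granule membrane that is needed for efficient exocytosis, and ZG16 is a lectin that binds granule glycans and is also made by goblet cells of the gut. GP2 is a GPI-anchored glycoprotein and a main component of the granule membrane, and CUZD1 is a granule protein with CUB and zona pellucida domains. Dmbt1 encodes muclin, a large mucin-like glycoprotein with scavenger receptor, CUB and zona pellucida domains, which is made by acinar cells and by many other epithelia. Klk1, tissue kallikrein, is itself a serine protease that releases kinins, so it is an enzyme of the granule that does not digest food.

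Promoter sequences were found for 4 of the 6 genes, and the 250 bases before their annotated starts are printed because Ptf1a is the deleted gene and the letters of its paired sites are known. They are from RefSeq on GRCm38.p6, and each reads 5′ to 3′ on the strand of its gene. The windows are chr7:28540635-28540884 on the plus strand for Sycn, chr7:44225110-44225359 on the plus strand for Klk1, chr7:119459273-119459522 on the minus strand for Gp2 and chr7:131322293-131322542 on the minus strand for Cuzd1. Capitals mark E-boxes (CANNTG) and the RBPJ box (TGGGAA, or its complement on the other strand). Matches that end after the printed bases, at -5 in Gp2 and at 1 in Klk1, are not marked.
Sycn: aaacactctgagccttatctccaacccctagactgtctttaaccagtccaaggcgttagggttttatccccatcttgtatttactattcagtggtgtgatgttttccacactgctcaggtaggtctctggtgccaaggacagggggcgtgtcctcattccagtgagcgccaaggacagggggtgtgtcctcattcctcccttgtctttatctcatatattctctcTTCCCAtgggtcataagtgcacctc
Klk1: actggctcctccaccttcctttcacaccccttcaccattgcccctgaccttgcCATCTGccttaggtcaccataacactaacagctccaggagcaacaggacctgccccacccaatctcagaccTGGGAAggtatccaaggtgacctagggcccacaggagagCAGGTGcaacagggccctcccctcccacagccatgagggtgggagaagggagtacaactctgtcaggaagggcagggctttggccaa
Gp2: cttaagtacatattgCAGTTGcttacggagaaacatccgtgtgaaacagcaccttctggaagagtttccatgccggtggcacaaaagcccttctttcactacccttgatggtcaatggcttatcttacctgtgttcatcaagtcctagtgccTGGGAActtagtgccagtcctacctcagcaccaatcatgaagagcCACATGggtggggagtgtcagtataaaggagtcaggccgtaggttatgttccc
Cuzd1: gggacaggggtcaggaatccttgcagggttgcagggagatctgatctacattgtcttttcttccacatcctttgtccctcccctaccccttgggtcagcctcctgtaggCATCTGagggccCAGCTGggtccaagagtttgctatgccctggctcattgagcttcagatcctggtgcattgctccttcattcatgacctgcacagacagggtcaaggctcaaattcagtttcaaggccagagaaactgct
The search covered both strands of the 300-base window, which runs on to 50 bases after the start. An E-box lay in the windows of Gp2, Klk1 and Cuzd1, at positions -235 and -53 in Gp2, -197, -87 and 1 in Klk1, and -141 and -129 in Cuzd1. An RBPJ box lay in the windows of Sycn, at -25, of Klk1, at -126, and of Gp2, at -98 and -5. Both motifs were present in 2 of the 4 windows, those of Gp2 and Klk1. Among 32851 mouse promoters of the same length, 72.3% held an E-box, 25.6% an RBPJ box and 19.0% both. These matches are descriptions of the letters and not binding sites.

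Ptf1a was measured first, since it checks the labels. Its normalized counts were 566, 601 and 652 in the control libraries and 19.8, 70.1 and 10.2 in the Ptf1a cKO libraries (log2 fold change -4.41, limma with Benjamini-Hochberg adjustment over all genes, adjusted p = 3.29e-04). The counts of named genes summed to 17949889 to 21175836 per control library and 5527104 to 8981107 per Ptf1a cKO library, while the median gene had about the same value in all 6. A list of 25 digestive enzyme genes took between 75.9% and 79.4% of the counts in control and between 32.0% and 57.6% in Ptf1a cKO. In these whole-tissue samples, fewer acinar cells and less RNA per acinar cell cannot be told apart.

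Of the 6 granule genes, 5 fell in Ptf1a cKO pancreata and 1, Dmbt1, did not. Gp2 fell the most, to 15.1% of its control mean, and Sycn, Zg16, Klk1 and Cuzd1 fell by between 3.90-fold and 5.68-fold. Of all 10245 genes 33.9% passed the test, 16.8% fell, and 1.28% fell with a log2 fold change under -2 as these 5 genes did. Every control value lay above every Ptf1a cKO value in the 5 genes, a separation that 24.3% of all genes showed in this direction and 50.8% in either. The lowest p that an exact two-sided permutation test of 3 against 3 libraries can give is 0.1, and each of the 6 genes reached it.

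**Figure D1:**
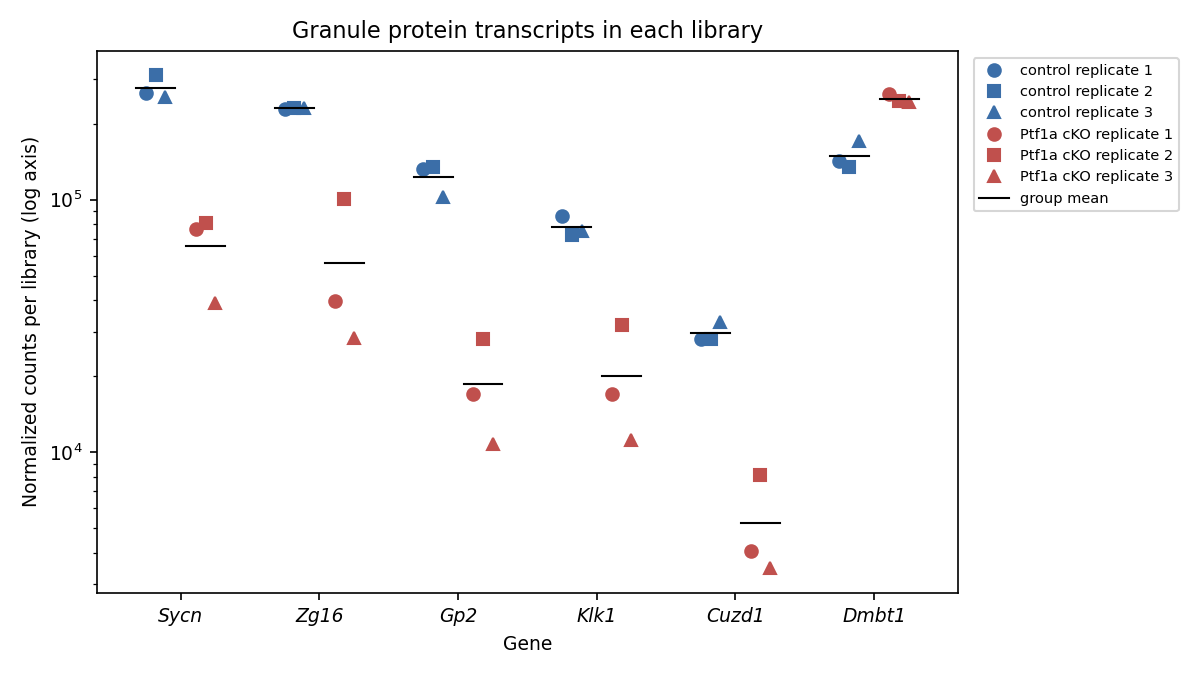
Normalized read counts of the 6 granule genes (log axis) in the 3 control and 3 Ptf1a cKO libraries, with 1 point per library and the group mean as a line. In Sycn, Zg16, Gp2, Klk1 and Cuzd1 every Ptf1a cKO library sits below every control library, and in Dmbt1 every Ptf1a cKO library sits above.

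Of the proteins inside the granule, Sycn was measured at 263547, 310167 and 255342 normalized counts in the control libraries and at 76408, 80556 and 39063 in the Ptf1a cKO libraries. The means were 276352 ± 29571 and 65342 ± 22853 (SD, n = 3 each), which is 4.23-fold lower in Ptf1a cKO. The log2 fold change was -2.15 (SE 0.40, 95% interval -3.04 to -1.25, limma with Benjamini-Hochberg adjustment, adjusted p = 0.00356). The third Ptf1a cKO library was the lowest and the other two were close to each other, and all lay far below the controls.

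The control values of the lectin gene Zg16 were nearly equal, at 227404, 230284 and 231183 normalized counts. The Ptf1a cKO values were 39689, 100800 and 28347. The coefficient of variation was 0.860% in control and 69.2% in Ptf1a cKO. There the highest library, that of the only male of its group, held 3.56 times the counts of the lowest. Zg16 was thus the gene whose fall differed most from mouse to mouse among the 6, and its mean was 4.08-fold lower (log2 fold change -2.25, SE 0.47, 95% interval -3.31 to -1.19, limma, adjusted p = 0.00661). Zg16 is also a goblet cell gene. Of 4 intestinal and goblet marker genes measured, Agr2 rose (log2 fold change 2.09), Spdef fell (-0.48) and Vil1 and Fcgbp did not pass the test. The call of Agr2 was lost without control replicate 1 or 2 and that of Spdef without control replicate 3 or Ptf1a cKO replicate 1. With every library set to the same total all 4 rose, as did 93.6% of all genes. Spdef then rose by 0.99 on the log2 scale, against a median of 1.48 over all genes. The summed counts of these 4 markers were 320 to 386 in control and 256 to 462 in Ptf1a cKO, and the part of goblet cells in the Zg16 level was not tested.

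Tissue kallikrein, Klk1, had 85851, 72636 and 75212 normalized counts in control and 16983, 31759 and 11167 in Ptf1a cKO. This was the smallest fall of the 5, at 3.90-fold (log2 fold change -2.09, SE 0.36, 95% interval -2.91 to -1.27, limma, adjusted p = 0.00268). Klk1 has close paralogs, and the read counter set aside alignments that were not unique, so the split of reads among them is uncertain. The table held 5 of these paralogs, whose counts, not corrected for length, were each at most 2.11% of the Klk1 count in any library. Of them, Klk1b3 (log2 fold change -2.70), Klk1b11 (-2.60), Klk1b5 (-2.03) and Klk1b4 (-1.33) fell, and Klk1b24 gave -1.03 without passing the test (limma, adjusted p = 0.0737). With every library set to the same total, Klk1b4 (0.13) and Klk1b24 (0.29) had the other sign, and neither passed the test. Under that scaling the median of all genes was 1.48. The count of Klk1b5 stood at a mean of 1.87% of the Klk1 count in control and 1.92% in Ptf1a cKO.

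Of the proteins of the granule membrane, Gp2 was measured at 132665, 135148 and 102130 normalized counts in control and at 17050, 28037 and 10764 in Ptf1a cKO. The mean went from 123314 ± 18389 to 18617 ± 8742, which is 6.62-fold lower. The log2 fold change of -2.82 (SE 0.36, 95% interval -3.63 to -2.02, limma, adjusted p = 6.01e-04) was the 35th lowest of all genes tested. The groups were far apart, with the highest Ptf1a cKO library well below the lowest control library.

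Cuzd1 stood at 27992, 28187 and 32915 normalized counts in control and at 4081, 8136 and 3479 in Ptf1a cKO, which is 5.68-fold lower. Its log2 fold change was -2.60 (SE 0.30, 95% interval -3.27 to -1.93, limma, adjusted p = 3.67e-04), and it ranked 57th from the lowest. The second Ptf1a cKO library was the highest of its group for Cuzd1, as it was for Sycn, Zg16, Gp2 and Klk1, and the third was the lowest for each of them. The second library came from the only male of that group, so sex and mouse cannot be told apart in this order. Ptf1a itself had the same order among these libraries, which are the same mice and not further evidence.

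Dmbt1, the muclin gene, was measured at 142512, 134041 and 170700 normalized counts in control and at 261473, 244542 and 242639 in Ptf1a cKO. Every Ptf1a cKO value lay above every control value, as was the case in 26.5% of all genes, and the means of 149084 ± 19193 and 249551 ± 10368 differ by a factor of 1.67. The log2 fold change was 0.75 (SE 0.38, 95% interval -0.10 to 1.60) and did not pass the test (limma, adjusted p = 0.151). The variance used there follows the trend over genes of like level, and with no trend, where Dmbt1's own 6 values weigh more, the same difference passed (limma, adjusted p = 0.00652), as did 31.7% of all genes. Dmbt1 was also the gene with the closest Ptf1a cKO libraries, with a coefficient of variation of 4.15% against 35.0% to 69.2% in the other 5.

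**Figure D2:**
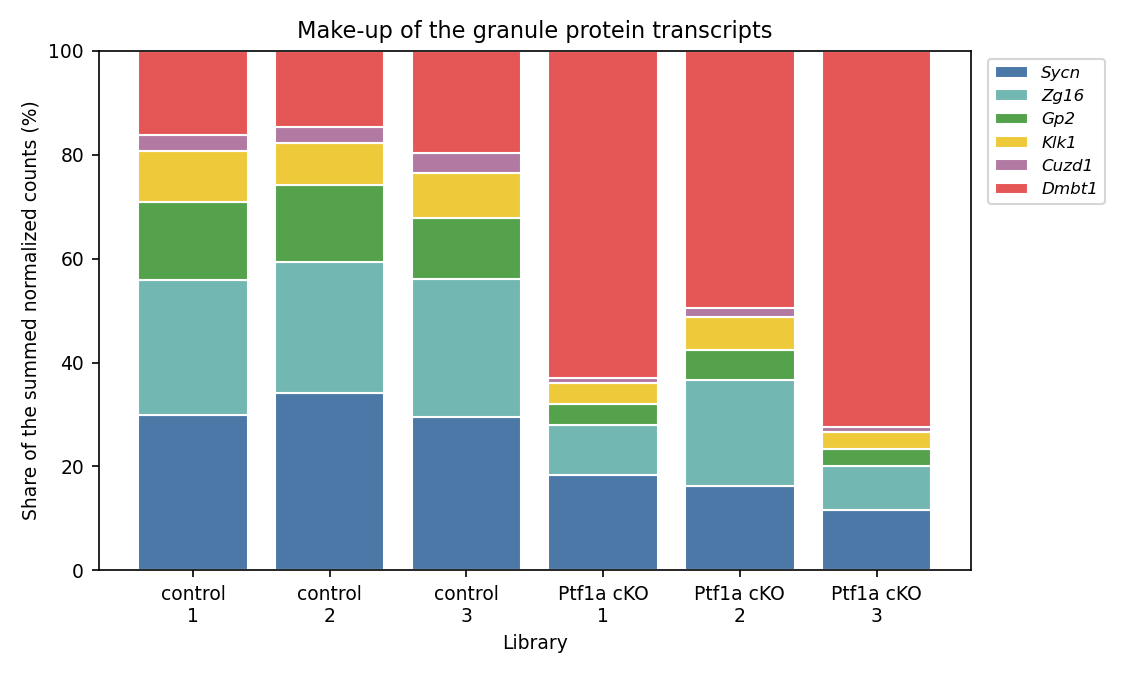
Share of each gene in the summed normalized counts of the 6 granule genes, in percent, for each library. Dmbt1 takes 14.7% to 19.7% of the sum in the control libraries and 49.5% to 72.3% in the Ptf1a cKO libraries.

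The makeup of this group of transcripts changed accordingly. Dmbt1 supplied 16.9% ± 2.54 of the summed counts of the 6 genes in control and 61.6% ± 11.5 in Ptf1a cKO (SD, n = 3 each). Sycn went from 31.2% ± 2.54 to 15.4% ± 3.45 of the sum and Gp2 from 13.9% ± 1.84 to 4.33% ± 1.25. The share of each gene in the counts also follows the length of its transcript. Without Dmbt1, the sum of the other 5 genes was 737459, 776422 and 696781 in control and 154212, 249288 and 92819 in Ptf1a cKO, a fall of the mean by 4.45-fold. The 6 genes together made up 4.16% to 4.83% of all counts in control and 5.50% to 6.07% in Ptf1a cKO, where the total was lower.

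To compare the levels of the 6 genes, values were taken per kilobase of merged exon from GENCODE M21. In control the order of the mean levels, in normalized counts per kilobase, was Sycn (497036), Zg16 (182676), Klk1 (72330), Gp2 (61719), Dmbt1 (21126) and Cuzd1 (13164). Klk1 and Gp2 overlapped in their control libraries, and the other neighbours in this order did not. In Ptf1a cKO the order was Sycn (117522), Zg16 (44772), Dmbt1 (35362), Klk1 (18542), Gp2 (9318) and Cuzd1 (2319), so Dmbt1 had moved above Klk1 and Gp2. There Sycn overlapped with Zg16, Zg16 with Dmbt1 and Klk1 with Gp2, and the other neighbours did not. Per kilobase, Sycn ranked 9 of 9700 genes in each control library and between 8 and 11 in Ptf1a cKO. Dmbt1 ranked 29 in each control library and between 19 and 22 in Ptf1a cKO, whereas Cuzd1 went from 31 or 32 to between 41 and 62.

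**Figure D3:**
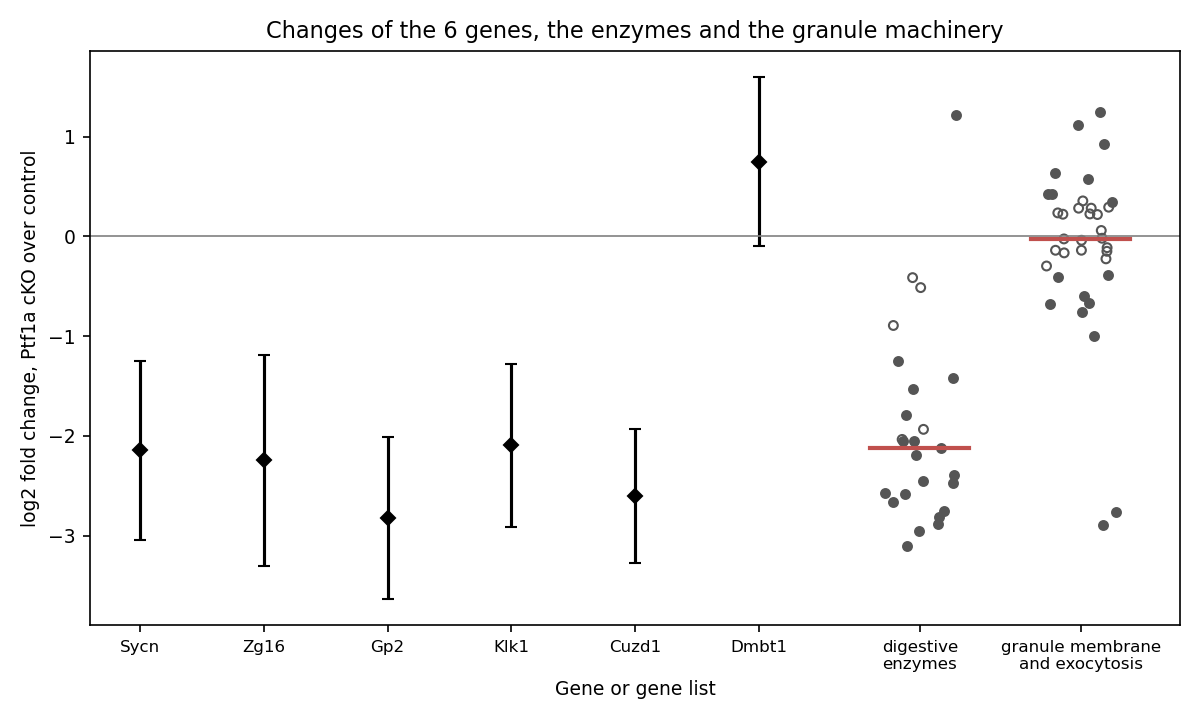
Log2 fold change (Ptf1a cKO over control) of the 6 granule genes, shown as diamonds with the 95% interval of the fit, and of the genes of the comparison lists, shown as points that are filled where the adjusted p was under 0.05, with the median of each list as a red bar. Sycn, Zg16 and Klk1 lie between -2.25 and -2.09, near the digestive enzymes' median of -2.13. Cuzd1 (-2.60) and Gp2 (-2.82) lie lower, and Dmbt1 lies at 0.75.

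The digestive enzymes are the main content of the same granule. Of the 25 measured, 19 fell (76%), 1 rose (4%) and 5 did not pass the test, where 16.8% of all genes fell and 17.1% rose. The median log2 fold change of the 25 was -2.13 against 0.036 over all genes. The chymotrypsin genes Ctrl (-2.81) and Ctrc (-2.57), the trypsinogen genes Try10 and Try5 and the lipase gene Pnliprp2 had the smallest adjusted p among those called, and the phospholipase gene Pla2g1b rose (log2 fold change 1.22), a call that was lost without any 1 of the control libraries or without Ptf1a cKO replicate 1. With every library set to the same total, 15 enzymes fell and 3 rose, where 1.26% of all genes fell and 93.6% rose. Of the 25 enzymes, 3 fell more than Gp2, 6 more than Cuzd1, 11 more than Zg16, 12 more than Sycn and 13 more than Klk1. Dmbt1 stood above 24 of them.

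The ratio of each granule gene to the summed enzymes was then taken within each library, since it does not depend on how libraries were scaled to one another. For Sycn the ratio was 1.77% ± 0.175 of the enzyme sum in control and 2.10% ± 0.497 in Ptf1a cKO (log2 difference 0.22, SE 0.23, exact permutation p = 0.5). For Zg16 it was 1.48% ± 0.189 and 1.62% ± 0.316 (log2 difference 0.12, SE 0.19, exact permutation p = 0.7), and for Cuzd1 0.193% ± 0.0424 and 0.163% ± 0.0310 (log2 difference -0.24, SE 0.23, exact permutation p = 0.4). The 2 groups overlapped in these 3 genes, and after scaling to the enzyme sum the 95% intervals of the fit ran from -0.16 to 0.60 for Sycn, from -0.28 to 0.52 for Zg16 and from -0.90 to 0.42 for Cuzd1. Under that scaling Dmbt1 was the only 1 of the 6 genes that passed the test, in a table where 97.1% of all genes passed and 96.9% rose.

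The ratio of Gp2 to the enzyme sum was lower in every Ptf1a cKO library than in any control library. It was 0.784% ± 0.0326 in control and 0.572% ± 0.0337 in Ptf1a cKO (log2 difference -0.46, SE 0.060, exact permutation p = 0.1, the lowest possible), although the fit after this scaling did not pass (95% interval -0.95 to 0.035, limma, adjusted p = 0.0703). Klk1 had groups that did not overlap in the other direction, at 0.500% ± 0.0580 and 0.602% ± 0.0353 (log2 difference 0.27, SE 0.11, exact permutation p = 0.1). Where the median of the 25 enzymes was taken in place of their sum, the difference was -0.13 for Sycn, -0.23 for Zg16 and -0.080 for Klk1, each with the other sign, and -0.81 for Gp2.

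Dmbt1 was 0.848%, 0.808% and 1.25% of the enzyme sum in control and 8.67%, 4.72% and 13.7% in Ptf1a cKO. The mean ratio was 9.32-fold higher, and the log2 difference was 3.12 (SE 0.49, exact permutation p = 0.1). That the groups did not overlap was fixed beforehand, since Dmbt1 was higher and the enzyme sum lower in every Ptf1a cKO library. Under the deposited scaling Dmbt1 itself was nearly level in the Ptf1a cKO libraries, while the enzyme sum ran from 1770205 to 5176563 normalized counts. The ratio alone does not tell whether Dmbt1 or the enzymes differed among these libraries.

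**Figure D4:**
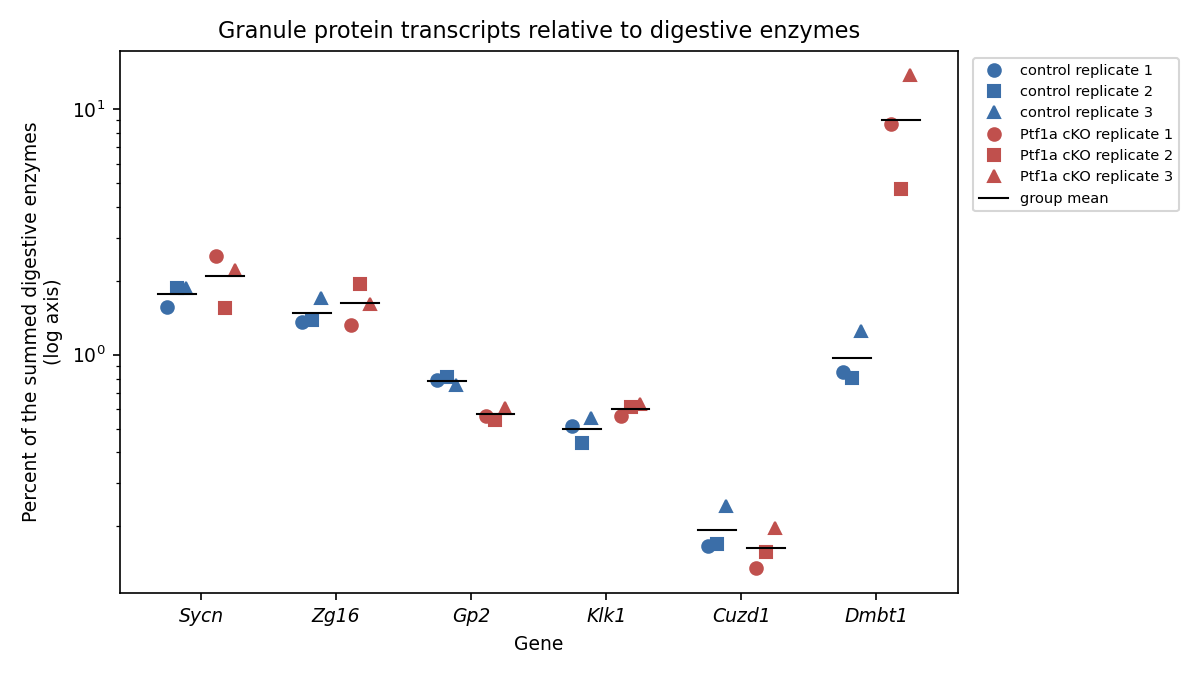
Each granule gene as a percentage of the summed digestive enzymes of its library (log axis), with 1 point per library and the group mean as a line. The groups overlap for Sycn, Zg16 and Cuzd1, Gp2 is lower and Klk1 higher in each Ptf1a cKO library, and Dmbt1 goes from 0.808% to 1.25% in control to 4.72% to 13.7% in Ptf1a cKO.

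The 6 genes were also compared with one another within libraries, as 15 pairs. In each of the 5 pairs with Dmbt1 the groups did not overlap. This was fixed by the single genes, since Dmbt1 was higher and each of the other 5 lower in every Ptf1a cKO library. The change of the other gene minus that of Dmbt1 was between -2.84 (Klk1) and -3.58 (Gp2) on the log2 scale. Of the 10 pairs without Dmbt1, 4 did not overlap. The log2 change of Gp2 minus that of Klk1 was -0.73 (SE 0.14), that of Sycn minus Gp2 was 0.68 (SE 0.21), that of Zg16 minus Gp2 was 0.58 (SE 0.23) and that of Klk1 minus Cuzd1 was 0.51 (SE 0.17). Each of these pairs had the lowest exact permutation p of 0.1, which is 0.167 after adjustment over the 15 pairs, so none passed. In the order of the changes, all neighbours but Klk1 and Dmbt1 overlapped, with differences of -0.22 (SE 0.24) for Gp2 minus Cuzd1, 0.36 (SE 0.19) for Zg16 minus Cuzd1, 0.099 (SE 0.38) for Sycn minus Zg16 and -0.052 (SE 0.28) for Sycn minus Klk1.

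All 6 genes lie on chromosome 7 in GRCm38, a chromosome that holds 7.42% of the measured genes with an annotated length. Dmbt1 and Cuzd1 are close neighbours there, with 2 protein-coding genes annotated between them, 4933402N03Rik and 5430419D17Rik, where Cuzd1 fell and Dmbt1 had a log2 fold change of 0.75. Gp2, Cuzd1 and Dmbt1 also share the zona pellucida domain. Of 5 measured genes of that domain family, Gp2 and Cuzd1 fell, the TGF-beta co-receptor gene Tgfbr3 rose (log2 fold change 0.84), and Dmbt1 and the endothelial co-receptor gene Eng (-0.24) did not pass the test. With every library set to the same total, Gp2 and Cuzd1 still fell, as 1.26% of all genes did. The other 3 were higher, as were 93.6% of all genes.

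The genes whose profile over the 6 libraries was closest to that of each granule gene, by the Euclidean distance of centred log2 values, were Try10 (0.31), Rragd (0.34) and Cldn10 (0.37) for Sycn, Rnase1 (0.27), Bhlha15 (0.29) and Gatm (0.29) for Zg16, and Nupr1 (0.24), 4930415O20Rik (0.24) and Pnliprp2 (0.27) for Klk1. For Gp2 they were Gcat (0.19), Slc38a3 (0.30) and 2210010C04Rik (0.30), and for Cuzd1 they were Atg9b (0.24), Ptger3 (0.26) and Gfi1 (0.31). Dmbt1 had Tmem231 (0.15), Mlph (0.16) and Itpripl2 (0.18) beside it. Try10, Rnase1, Pnliprp2 and 2210010C04Rik are pancreatic enzyme genes, and none of the 3 nearest to Dmbt1 is one. Among the 6 themselves, Zg16 and Klk1 were the closest pair (0.42), and Dmbt1 was between 3.66 and 4.52 from the others.

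Genes for the machinery that moves and fuses the granule were called in both directions. Of 36 measured genes for granule membrane and exocytosis proteins, 9 fell, 8 rose and 19 did not pass the test (25% lower and 22.2% higher, against 16.8% and 17.1% of all genes), with a median log2 fold change of -0.022. Leaving out 1 library left 7 to 9 that fell and 2 to 6 that rose, the latter being 2 without Ptf1a cKO replicate 1, 3 without control replicate 1 and 4 without control replicate 2 or 3 or Ptf1a cKO replicate 3. The granule aquaporin gene Aqp12 (-2.89) and the granule GTPase gene Rab26 (-2.76) fell by as much as Gp2, and the GTPase gene Rab27a fell by less (-0.76). The apical syntaxin gene Stx3 (1.12) and the calcium sensor gene Syt7 (1.25) rose. With every library set to the same total, Aqp12 (-1.40) and Rab26 (-1.30) were the only 2 of the 36 that fell, as 1.26% of all genes did. The other 34 rose, as did 93.6% of all genes, and Rab27a (0.72) stood below the median of all genes (1.48).

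**Figure D5:**
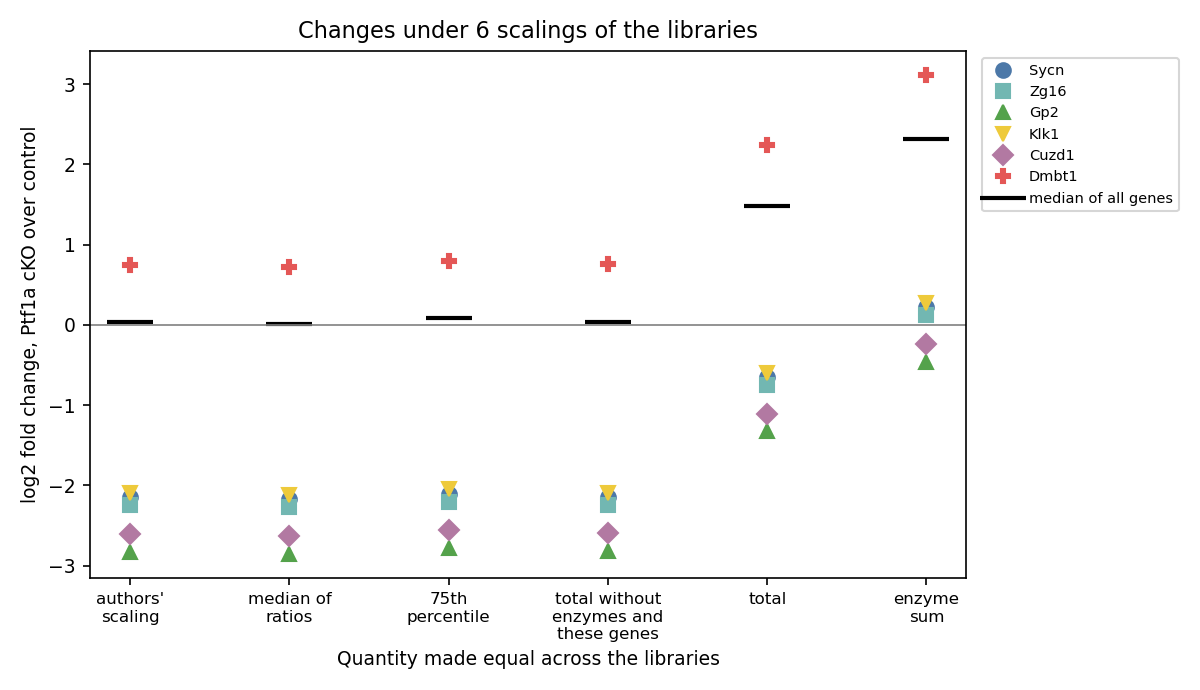
Log2 fold change of each granule gene under the deposited scaling and under the other scalings of whole libraries, with a symbol for each gene. A black bar gives the median of all genes, and the symbols do not show which genes passed the test. Sycn, Zg16, Gp2, Klk1 and Cuzd1 stay below 0 under every scaling but that to the same enzyme sum, where Sycn, Zg16 and Klk1 lie above 0, and Dmbt1 stays above 0 under each.

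The size of these changes rests on how libraries were scaled. With every library set to the same total, the median of all genes moved from 0.036 to 1.48, and the 5 lower genes still fell, with log2 fold changes of -0.60 (Klk1), -0.65 (Sycn), -0.75 (Zg16), -1.11 (Cuzd1) and -1.33 (Gp2), while Dmbt1 rose by 2.25 on the log2 scale. Under that scaling 93.6% of all genes rose and 1.26% fell.

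Markers of some other cell types moved with the groups. Of 12 ductal marker genes measured, 8 rose, among them Spp1 (log2 fold change 5.14, the largest) and Sox9 (2.21), and 4 did not pass the test. The median log2 fold change of the 12 was 0.99. Their summed counts were 5928 to 6678 in control and 28967 to 112780 in Ptf1a cKO. This sum weighs genes by their counts and rose by more than the median gene did. The 8 gastric marker genes gave 6 that rose, with sums of 22956 to 27883 and 213131 to 567427. Leukocyte markers rose in 9 of 11 genes (sums of 792 to 1441 and 1817 to 5401) and fibroblast and stellate markers in 8 of 9 (3029 to 3446 and 5948 to 10522), 1 of 5 adipose markers rose, and none of 8 endocrine markers passed the test. With every library set to the same total, all 8 endocrine and all 5 adipose markers rose, as did 93.6% of all genes. Without 1 library some of these counts moved by over 1.5 times. Ductal markers that rose were 5 without control replicate 2 or Ptf1a cKO replicate 1, and leukocyte markers that rose were 4 without control replicate 2 and 5 without Ptf1a cKO replicate 3. Without Ptf1a cKO replicate 2, 4 endocrine markers rose, and without control replicate 3, 2 adipose markers rose. No listed marker was at 0 in all 3 control libraries. Dmbt1 is expressed by epithelia other than acinar cells, and the part of these cell types in its level, or in the lower values of the other 5 genes, was not tested.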

How the data were processed

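RNA-seq libraries were made from whole pancreata of 3 control and 3 Ptf1a cKO mice and read as single ends of 50 nucleotides. The submitters' processing notes name TopHat2 2.0.4, Bowtie 0.12.7.0, SAMtools 0.1.18.0, HTSeq 0.6.0 and the mm9 build, and the methods of the study name edgeR with TMM normalization. The authors deposited a signal per gene symbol and library, namely normalized read counts with decimals, from which whole reads could not be recovered. Reads per gene are therefore unknown, and precision rests on the 3 mice of each group. The methods of the study give the uniquely aligned reads of each library, which were of similar number in both groups. Entries that name no gene (3, between 75.7% and 82.6% of a library's normalized counts) were left out. Most of these counts were alignments that were not unique, at 74.4% to 76.2% of a control library and 77.3% to 81.1% of a Ptf1a cKO library. The split of reads among close paralogs, also those in the enzyme sum, is therefore uncertain. In addition, 17 symbols had become dates.

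Every value was divided by 13.6393, the same in all libraries, and log2(value + 0.25) was taken, so that fold changes of low genes are understated. A mean of at least 0.25 was required, and 10245 genes were tested. Groups were compared with limma 3.58.1 in R 4.3.3 (lmFit, then eBayes with the trend option, two-sided, no covariate) with Benjamini-Hochberg adjustment over all genes and a threshold of 0.05. Single ratios were compared by exact permutation of the libraries in Python 3.11.15 with pandas 2.3.3. The fit was tested on simulated data.

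Genes named are the 6 granule genes, Ptf1a, at most the 5 genes with the smallest adjusted p among those called of each list, all kallikrein and zona pellucida family genes measured, and the 3 genes nearest in profile to each granule gene. Intestinal markers that did not pass, Pla2g1b and the genes between Dmbt1 and Cuzd1 were named after their values were seen. The granule genes and all lists were chosen with earlier results of these data known. Replicate numbers did not pair the libraries, which came from different mice.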

Additional observations from a re-analysis of the deposited data

How the results depend on the processing

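The 5 lower granule genes fell and passed the test under each alternative except a scaling to the same sum of digestive enzymes, which was chosen after the data were seen. Under it, Sycn (0.22), Zg16 (0.12) and Klk1 (0.27) had the other sign, Gp2 (-0.46) and Cuzd1 (-0.24) no longer passed, and only 1 of the 6 genes, Dmbt1, was called. Dmbt1 passed under the same total (2.25), with no trend (0.75) and under the enzyme sum (3.12), and not under its 16 other alternatives. Without 1 library in turn, log2 fold changes ran from -2.33 to -1.81 for Sycn, -2.78 to -1.86 for Zg16, -3.17 to -2.48 for Gp2, -2.50 to -1.74 for Klk1, -2.97 to -2.36 for Cuzd1, 0.68 to 0.85 for Dmbt1 and -5.10 to -3.88 for Ptf1a, and 5 to 5 granule genes were called. The number of genes called over the table was 3475, 2363 to 3601 without 1 library, 9716 under the same total and 9943 under the enzyme sum. For the granule membrane and exocytosis genes it was 17, 36 under the same total, 34 under the enzyme sum, and 10 to 15 without 1 library, with 10 without control replicate 1 or Ptf1a cKO replicate 1 and 11 without control replicate 2 or Ptf1a cKO replicate 3. For the digestive enzymes it was 20, and 14 to 22 without 1 library. Ratios to the enzyme sum ran from 0.071 to 0.42 for Sycn, -0.020 to 0.26 for Zg16 (below 0 without Ptf1a cKO replicate 2), -0.50 to -0.42 for Gp2, 0.18 to 0.35 for Klk1, -0.38 to -0.063 for Cuzd1 and 2.75 to 3.52 for Dmbt1 without 1 library. Against the median enzyme they were -0.13 for Sycn, -0.23 for Zg16, -0.81 for Gp2, -0.080 for Klk1 and -0.59 for Cuzd1. Of the 15 pairs, 9 did not overlap, and 9 to 12 without 1 library. The cause of these shifts was not tested. Same-numbered libraries correlated at 0.039, 0.13 and 0.14 in their deviations from the group means, which does not pair them. With the replicate number as a block, 3525 genes were called, the same 5 granule genes among them, and Dmbt1 was not (limma, adjusted p = 0.184). The alternatives with edgeR and DESeq2 were not run, since they need whole reads.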
